A study of Mus musculus with 16 samples.

Results

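Integrins are the main receptors by which cells hold to the extracellular matrix and, on blood cells, to one another. The 10 integrin genes described here, Itga2b, Itgb3, Itga4, Itga5, Itga6, Itga9, Itgav, Itgb1, Itgb5 and Itgb7, were chosen by name out of 18193 genes with a symbol on the array. They were represented by 33 probe sets, each annotated to 1 gene, and the probe set with the highest mean stood for its gene. The cells were CCE mouse embryonic stem cells that had been withdrawn from leukemia inhibitory factor (LIF) to form embryoid bodies, then dissociated, fixed, stained with antibodies and sorted by flow cytometry. There were 8 populations with 2 arrays each, namely the positive and the negative cells of 4 sorts: by VEGF-R2 at day 2.5, by CD41 at day 3.5, and by CD144 at day 3.5 and again at day 6.5. VEGF-R2 is a receptor of vascular endothelial growth factor that marks precursors of blood and endothelium, CD41 marks early hematopoietic cells, and CD144 is VE-cadherin, the cadherin of endothelial junctions. By the study's methods the CD41 and CD144 positive cells of day 3.5 were subsets of VEGF-R2 positive cells, and the duplicates came from separately conducted experiments with this 1 cell line. The negative cells of each sort were those that the antibody did not stain, which can be a mixture of cell types. The study's methods write the CD41 negative cells as negative for VEGF-R2 too. The CD41 sort can therefore differ in both markers, and their parts were not tested apart.

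An integrin is a heterodimer of an alpha and a beta chain, and the pairing sets what it binds. The chain encoded by Itga2b (integrin alpha IIb, CD41) pairs with beta 3 to form the fibrinogen receptor of platelets and megakaryocytes, and CD41 is also one of the earliest surface markers of blood formation in the embryo. Beta 3 and beta 5 pair with alpha v as well, in receptors for vitronectin, while beta 1 pairs with alpha 4, alpha 5, alpha 6, alpha 9 and alpha v, in receptors for fibronectin, laminin and tenascin. Beta 7 pairs with alpha 4 on lymphocytes. Integrins are switched on from inside the cell by talins and kindlins, which bind the tail of the beta chain.

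Signals are array intensities that the authors had scaled to the same trimmed mean on every array, and differences are log2 fold changes on the log2(signal + 6) scale from limma, with p-values adjusted over 45037 probe sets and a threshold of 0.05. The transcript of each sorting marker followed its sort. Kdr (VEGF-R2) was at 5475 to 6297 in VEGF-R2 positive and 2077 to 2088 in VEGF-R2 negative cells, and Cdh5 (CD144) was at 1863 to 3166 in the CD144 positive and 20.5 to 38.3 in the CD144 negative cells of both days. The positive and the negative arrays also differed as sets. The geometric mean of 9 hybridization control probe sets was 5171 to 9079 on the 8 positive and 1829.7 to 2570.5 on the 8 negative arrays, and the Spearman coefficient of duplicates was 0.873 to 0.895 on the former and 0.945 to 0.955 on the latter. The signal of the Gapdh 3′ control was 44685.2 to 65894.5 on the positive and 20398.4 to 26035.7 on the negative arrays. The part of these differences in the comparisons of positive with negative cells was not tested. In sorted bulk samples, fewer cells of a type and less RNA per cell cannot be told apart.

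Upstream sequence of 3 genes is shown because Itga2b and Itga4 were highest in CD41 positive cells and Itgb5 was lowest there. RefSeq promoter windows (GRCm38.p6) were found for 8 of the 10 genes, Itga6 and Itgb3 being without an entry. Each run is the 250 bases before the annotated start, 5′ to 3′ on the gene's strand, and capitals mark matches on either strand to the motifs searched.
Itga2b: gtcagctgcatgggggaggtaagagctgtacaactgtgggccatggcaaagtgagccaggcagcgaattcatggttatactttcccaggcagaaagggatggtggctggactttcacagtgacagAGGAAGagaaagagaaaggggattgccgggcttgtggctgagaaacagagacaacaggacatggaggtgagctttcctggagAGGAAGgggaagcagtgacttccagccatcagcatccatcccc
Itga4: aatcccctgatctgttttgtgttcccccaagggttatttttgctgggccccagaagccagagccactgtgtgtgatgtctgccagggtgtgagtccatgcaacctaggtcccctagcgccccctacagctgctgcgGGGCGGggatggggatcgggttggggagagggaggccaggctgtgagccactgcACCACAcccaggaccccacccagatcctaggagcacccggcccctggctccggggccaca
Itgb5: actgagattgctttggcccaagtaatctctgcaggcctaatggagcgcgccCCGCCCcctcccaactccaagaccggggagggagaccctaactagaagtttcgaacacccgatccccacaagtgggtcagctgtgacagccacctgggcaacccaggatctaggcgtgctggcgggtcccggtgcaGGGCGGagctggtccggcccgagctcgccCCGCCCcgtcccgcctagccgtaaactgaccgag

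These runs lie at chr11:102469884-102470133 on the minus strand for Itga2b, at chr2:79255176-79255425 on the plus strand for Itga4 and at chr16:33829415-33829664 on the plus strand for Itgb5. For GATA factors the letters searched were AGATAA or its variant AGATAG, and TGATAA or its variant TGATAG. ETS factors were given as AGGAAG or with a first C as CGGAAG, RUNX factors as TGTGGT, and the factor SP1 as GGGCGG. The ETS letters began at -125 and -43 from the Itga2b start. The Itga4 run held GGGCGG at -114 and TGTGGT on the opposite strand at -60, and the Itgb5 run held GGGCGG on one or the other strand at -199, -63 and -34. No matches overlapped in these runs. Among 32851 promoters of the same length, 39.2% held the ETS letters, 32.7% the SP1 letters, 26.5% the GATA letters and 14% the RUNX letters, so such matches are common and only describe the windows. The Itga2b run held 2 CG dinucleotides, the Itga4 run 6 and the Itgb5 run 18, against a median of 6 over the promoters.

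Itga2b was highest in CD41 positive cells and raised in each of the other positive populations. Its signals were 7523 and 5299 in CD41 positive cells and 227 and 195 in CD41 negative cells. Since the cells were sorted on the protein it encodes, this difference checks the labels and is no finding. Outside the CD41 sort Itga2b was at 639 and 895 in VEGF-R2 positive and 229 and 189 in VEGF-R2 negative cells. In CD144 positive cells it was at 1632 and 1847 at day 3.5 and at 2716 and 1729 at day 6.5. The CD144 negative cells were at 224 and 179 on day 3.5 and at 292 and 336 on day 6.5. All 8 positive arrays were above the 8 negative arrays. In the order of population means the CD41 positive cells came first, followed by CD144 positive cells at day 6.5 and at day 3.5, whose arrays overlapped, and then by VEGF-R2 positive cells. Against the negative cells of the same day the log2 fold change was 1.83 (adjusted p = 2.84e-05, standard error 0.24) for VEGF-R2, 3.08 (adjusted p = 2.17e-07) for CD144 at day 3.5 and 2.77 (adjusted p = 5.88e-07) for CD144 at day 6.5.

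Itgb3, the beta chain that pairs with CD41, had the largest fold change of the integrin genes in 3 of the 4 sorts. It was at 2177 and 1654 in CD41 positive cells but at 45.8 and 2.27 in CD41 negative cells. In CD144 positive cells it was at 240 and 280 at day 3.5 and at 780 and 838 at day 6.5, while CD144 negative cells had 1.89 and 4.46 at day 3.5 and 41.7 and 63.9 at day 6.5. VEGF-R2 positive cells had 53.7 and 133, and VEGF-R2 negative cells had 35.6 and 25.2. The order of the 4 positive populations was that of Itga2b, here without overlap among them, and the lower VEGF-R2 positive array fell within the range of the CD144 negative cells of day 6.5. The log2 fold change was 6.52 (adjusted p = 8.86e-07, standard error 0.65) in the CD41 sort, 4.87 (adjusted p = 5.33e-05) in the CD144 sort at day 3.5 and 3.82 (adjusted p = 0.000438) at day 6.5. In the VEGF-R2 sort it was 1.34 and missed the threshold (adjusted p = 0.149), although the duplicates did not overlap. The negative cells lay below the median of all signals, 85.8, where the size of a fold depends on the offset, and with an offset of 32 in place of 6 the CD144 value at day 3.5 became 3.05. The other Itgb3 probe set was dim, with a median signal of 12.4 over the arrays, and its log2 fold change of 2.07 in the CD41 sort did not pass the test (adjusted p = 0.0675).

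Itga4, the alpha chain of a fibronectin and VCAM-1 receptor on blood progenitors, was likewise highest in CD41 positive cells. Its signals there were 741 and 467, against 56.5 and 56.9 in CD41 negative cells. CD144 positive cells had 123 and 151 at day 3.5 and 187 and 223 at day 6.5, while CD144 negative cells had 48.9 and 62.1, and then 103 and 135. In VEGF-R2 positive cells the duplicates were at 118 and 54.2, on both sides of the 117 and 97.2 of VEGF-R2 negative cells. The CD144 positive cells of day 6.5 came next to the CD41 positive cells in order and overlapped neither these nor the 6 lower populations. Among the latter each population overlapped the next in order. The CD41 sort gave Itga4 a difference of 3.24 (adjusted p = 1.07e-05, standard error 0.40). The difference of 1.21 in the CD144 sort at day 3.5 (adjusted p = 0.0429) was lost on leaving out any of 8 arrays, with adjusted p up to 0.226, and with arrays centred on their medians (1.06, adjusted p = 0.0735). At day 6.5 the difference was 0.76 (adjusted p = 0.219). The other 4 Itga4 probe sets had median signals of 13.2 to 30.7, and none of them passed the test in any of the 4 sorts.

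**Figure D1:**
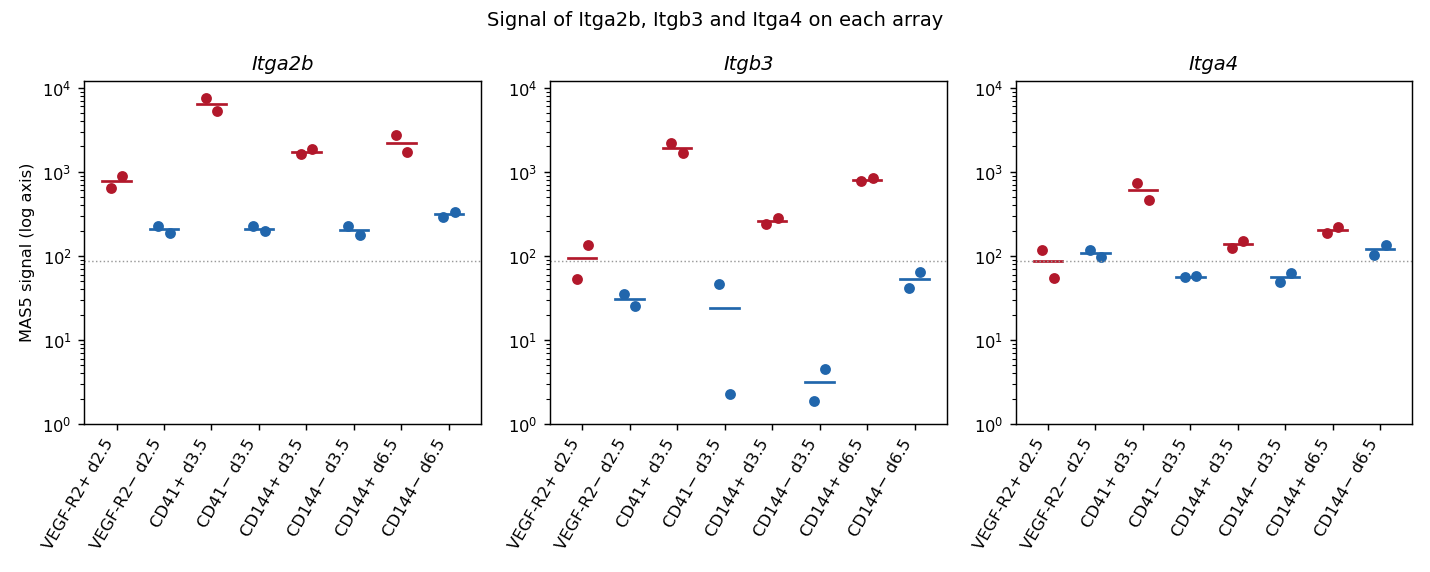
MAS5 signal on a log axis for Itga2b, Itgb3 and Itga4 on each of the 16 arrays, with positive populations in red and negative ones in blue; points are the 2 arrays of a population, bars their mean and the dotted line the median of all signals, 85.8. The CD41 positive cells of day 3.5 are highest in each panel, with means of 6411, 1915 and 604.

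Itga5, which with beta 1 forms the main fibronectin receptor, was higher in the positive cells of each sort. The signals were 1365 and 833 in VEGF-R2 positive and 513 and 516 in VEGF-R2 negative cells, and 437 and 779 in CD41 positive against 96.7 and 172 in CD41 negative cells. In the CD144 sorts they were 719 and 1079 against 325 and 288 at day 3.5, and 1129 and 998 against 350 and 327 at day 6.5. The duplicates did not overlap between positive and negative cells of a sort, but the positive populations overlapped their neighbours in the order of means, and CD41 positive cells overlapped the VEGF-R2 negative cells. Log2 fold changes were 1.04 (adjusted p = 0.018), 2.12 (adjusted p = 4.48e-05), 1.51 (adjusted p = 0.00184) and 1.63 (adjusted p = 0.000969) in the order above, each with a standard error of 0.30. The first was lost without VEGF-R2 positive replicate 1 (0.69, adjusted p = 0.192) or either VEGF-R2 negative array. In CD41 negative cells Itga5 was lower by 1.95 than in the VEGF-R2 negative cells (log2 fold change -1.95, adjusted p = 0.00124), so the CD41 value is set against the lowest of the 8 populations. The Itga5 set is of a type that can match more than 1 transcript, and the other 3 Itga5 sets, with median signals of 35.4 to 75.5, were not called in any sort.

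Itga9, the alpha chain of a tenascin and VCAM-1 receptor known from lymphatic endothelium, was also higher in the positive cells of each sort, by a similar amount. The 8 positive arrays spanned 358 to 584 and the 8 negative arrays 128 to 216, without overlap. The log2 fold changes were 1.49 (adjusted p = 0.000395) for VEGF-R2, 1.54 (adjusted p = 0.000197) for CD41, 0.94 (adjusted p = 0.0152) for CD144 at day 3.5 and 1.21 (adjusted p = 0.00261) for CD144 at day 6.5, each with a standard error of 0.26. The means of the 4 positive populations were 379.8 to 488, and Itga9 was not called in any comparison between them. The hybridization controls and Gapdh split the arrays in the same way, and the part of this in the Itga9 values was not tested. The value at day 3.5 in the CD144 sort was lost without CD144 positive replicate 1 (0.85, adjusted p = 0.0817), without either CD144 negative array of that day, and with arrays centred on their medians (0.78, adjusted p = 0.054). The other 2 Itga9 probe sets were dimmer, with median signals of 34.7 and 122, and were not called in any sort, and the former gave -0.81 in the CD41 sort (adjusted p = 0.459).

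Itga6, a laminin receptor chain abundant on embryonic stem cells and also present on platelets, was lower in the positive cells of 2 sorts. It was at 1410 and 1579 in VEGF-R2 positive against 3033 and 3050 in VEGF-R2 negative cells, and at 789 and 1099 in CD41 positive against 3165 and 3249 in CD41 negative cells. In the CD144 sorts the positive cells had 2414 and 2404 at day 3.5 and 2795 and 2224 at day 6.5, and the negative cells had 2477 and 2124, and then 2523 and 2786. Positive and negative duplicates were apart in the VEGF-R2 and CD41 sorts and overlapped in both CD144 sorts, and the CD41 positive cells had the lowest signal of the 8 populations. The log2 fold change was -1.02 (adjusted p = 0.00016, standard error 0.16) for VEGF-R2 and -1.78 (adjusted p = 2.87e-07) for CD41, and it was 0.07 (adjusted p = 0.812) and -0.09 (adjusted p = 0.765) for CD144 at day 3.5 and day 6.5. The second Itga6 probe set gave -2.01 (adjusted p = 3.55e-06) and -1.97 (adjusted p = 1.8e-06) in the former and 0.01 and 0.02 in the latter.

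Itgav, the alpha chain that pairs with beta 3, beta 5 and beta 1, was lower in the positive cells of each sort. It was at 1216 and 1290 in VEGF-R2 positive against 2358 and 2347 in VEGF-R2 negative cells, and at 1044 and 943 against 1600 and 1663 in the CD41 sort. In the CD144 sorts it was at 1386 and 1338 against 2043 and 2031 at day 3.5, and at 1998 and 2115 against 2925 and 4180 at day 6.5. No duplicates overlapped between positive and negative cells of a sort. The log2 fold changes were -0.91 (adjusted p = 0.00027), -0.71 (adjusted p = 0.00145), -0.58 (adjusted p = 0.0107) and -0.76 (adjusted p = 0.00144) in that order, each with a standard error of 0.15. That at day 3.5 in the CD144 sort was lost without CD144 positive replicate 2 (-0.55, adjusted p = 0.0645) or either CD144 negative array of that day. Another Itgav probe set, with a median signal of 53.2, gave -3.52 (adjusted p = 0.0118) and -3.14 (adjusted p = 0.0191) in the VEGF-R2 and CD41 sorts, and the other 3 sets were not called in any sort.

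Itgb1, the beta chain shared by 5 of the alpha chains above, was lower in the CD144 positive cells of day 3.5. There it was at 983 and 879, against 2357 and 2403 in CD144 negative cells, a log2 fold change of -1.35 (adjusted p = 0.00143, standard error 0.26). It was at 991 and 1001 in CD41 positive and at 1476 and 1858 in CD41 negative cells, and the value of -0.73 (adjusted p = 0.0465) was lost on leaving out any of 12 arrays, with adjusted p up to 0.27. VEGF-R2 positive cells had 1217 and 1270 and VEGF-R2 negative cells 1731 and 1814, with a log2 fold change of -0.51 (adjusted p = 0.18). In these 3 sorts the Itgb1 duplicates of positive and negative cells did not overlap. The day 6.5 duplicates were far apart, at 2420 and 1616 in CD144 positive and 2846 and 1262 in CD144 negative cells, and overlapped. Without CD144 negative replicate 1 of that day the difference of 0.06 (adjusted p = 0.913) became 0.65 (adjusted p = 0.0493). Of the 6 Itgb1 probe sets the other bright one, with a median signal of 1411, gave -2.09 (adjusted p = 4.89e-05) in the CD144 sort at day 3.5, -1.39 (adjusted p = 0.00091) in the CD41 sort and -0.92 (adjusted p = 0.0207) in the VEGF-R2 sort. Dimmer Itgb1 sets had values of the opposite sign that passed, 1.32 (adjusted p = 0.0464) in the CD41 sort for one with a median signal of 111 and 2.49 (adjusted p = 0.0242) in the VEGF-R2 sort for one with a median of 6.66.

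Itgb5, a vitronectin receptor chain that pairs with alpha v alone, was lowest in CD41 positive cells. Its signals there were 102 and 443, against 924 and 837 in CD41 negative cells. In VEGF-R2 positive cells it was at 1113 and 914 and in VEGF-R2 negative cells at 1043 and 1099. CD144 positive cells had 1008 and 825 at day 3.5 and 1191 and 1153 at day 6.5, against 1603 and 1504, and then 1746 and 2056, in CD144 negative cells. Both CD41 positive arrays lay below those of the other 7 populations, though far from each other. The log2 fold change in the CD41 sort was -2.01 (adjusted p = 0.000772, standard error 0.39), and it was -0.98 without CD41 positive replicate 1 and -3.03 without replicate 2, called in each case. The other 3 Itgb5 sets were called lower in that sort too, at -2.24, -1.54 and -2.95 (highest adjusted p = 0.000449). Those at -1.54 and -2.95 are of a type that can match more than 1 transcript, and they are the 2 called at day 6.5 below. In the CD144 sorts the duplicates did not overlap, but the values of -0.76 (adjusted p = 0.191) at day 3.5 and -0.69 (adjusted p = 0.249) at day 6.5 did not pass. The other 3 sets were called lower at day 3.5, at -1.37 (adjusted p = 0.0252), -0.88 (adjusted p = 0.00286) and -0.97 (adjusted p = 0.00681), and 2 of them at day 6.5, at -1.06 (adjusted p = 0.000615) and -0.99 (adjusted p = 0.00605). With either CD41 positive array left out of the shared fit, both values of the representative set passed (highest adjusted p = 0.00355). Itgb7 was dim, from 16.7 to 165 over the 16 arrays, and was not called in any comparison.

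**Figure D2:**
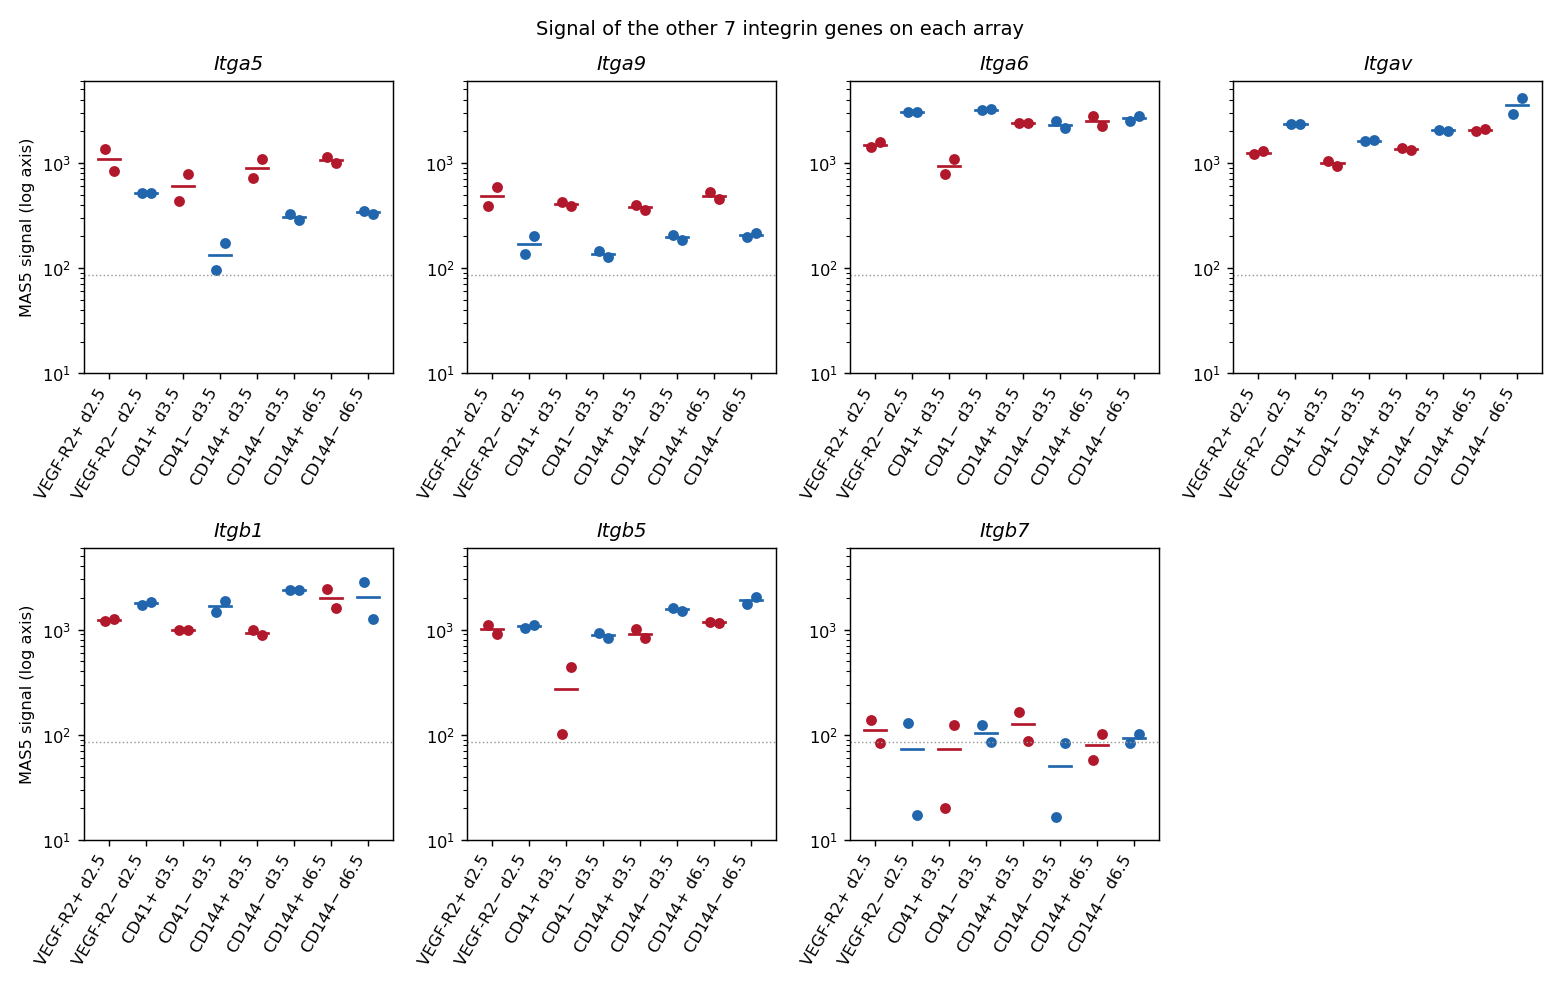
MAS5 signal on a log axis for the other 7 integrin genes on each array, with positive populations in red, negative ones in blue, bars at the means and the dotted line at the median of all signals, 85.8. Itga5 and Itga9 lie higher in the positive cells of a sort, Itgav lies lower, and Itga6 and Itgb5 have their lowest means, 944 and 273, in CD41 positive cells.

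The integrin genes thus moved in both directions in each sort. In the VEGF-R2 sort 3 of the 10 genes were called higher and 2 lower, where 11.1% of all probe sets were called higher and 13.8% lower, and 16% and 13.7% of all 18193 genes with 1 probe set each, as the integrin genes have. In the CD41 sort 5 were higher, with Itga2b among them as the sorting marker, and 4 lower, against 13.5% and 15.8% of all probe sets and 19.2% and 17.2% of all genes. In the CD144 sort 5 were higher and 2 lower at day 3.5, against 9.49% and 10.5% of all probe sets and 13.7% and 10.3% of all genes. At day 6.5 4 were higher and 1 lower, against 9.41% and 10.1% of all probe sets and 13.4% and 11.9% of all genes. Each integrin gene was represented by a probe set above the median level of all probe sets. The median log2 fold change over the 10 genes was 0.47 in the VEGF-R2 sort, 0.41 in the CD41 sort, 1.08 in the CD144 sort at day 3.5 and 0.41 at day 6.5, and over all 18193 genes it was 0.16, 0.18, 0.17 and 0.14. Medians of the arrays themselves were higher in positive cells by 0.15 and 0.12 in the CD144 sorts at day 3.5 and day 6.5 and differed by 0.01 and -0.02 in the VEGF-R2 and CD41 sorts.

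**Figure D3:**
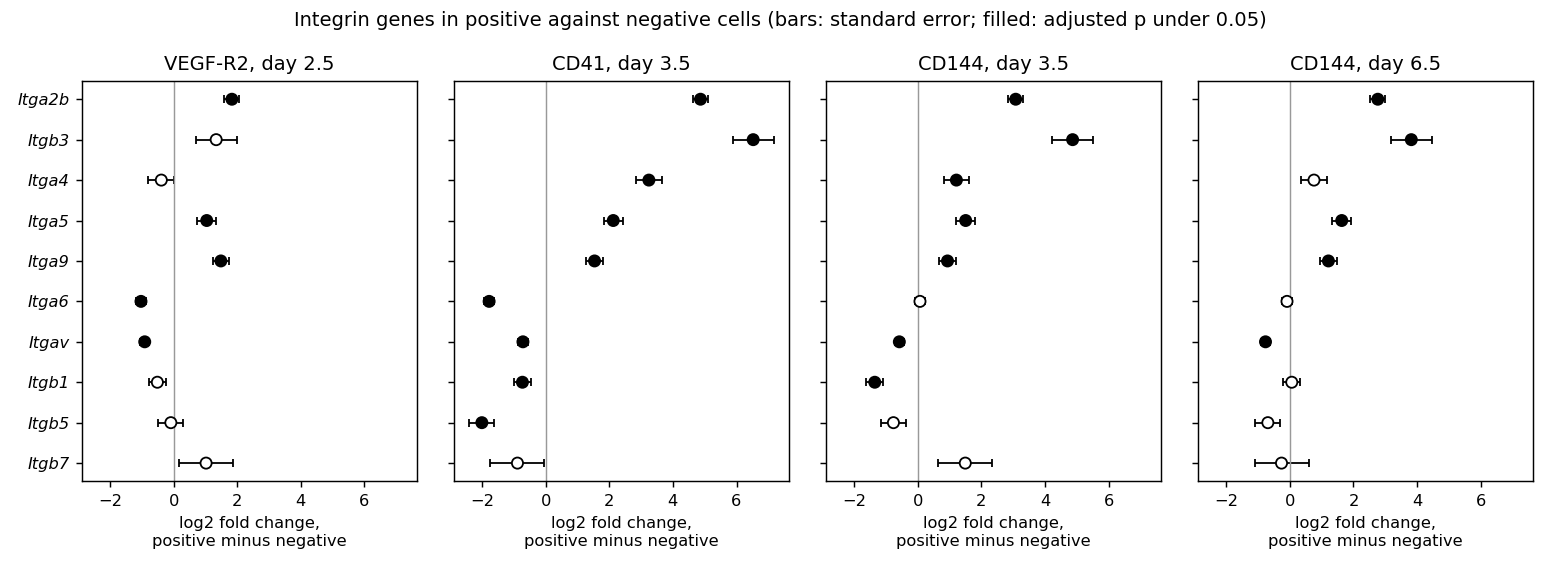
Log2 fold change of each integrin gene between positive and negative cells in the 4 sorts, on the log2(signal + 6) scale; points are fitted values, bars their standard errors, and filled points have an adjusted p below 0.05. Itgb3 has the largest value in the CD41 sort, 6.52, and Itga6 lies near 0 in both CD144 sorts, at 0.07 and -0.09.

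The later positive populations were next set against the VEGF-R2 positive cells of day 2.5, which these comparisons share. In CD41 positive cells 3 integrin genes were higher and 2 lower, where 5.02% and 4.82% of all probe sets and 7.04% and 7.59% of all genes were. Itga2b, the gene of the sorting marker, is 1 of the 3, higher by 3.05 as the sort on CD41 fixes, so this value is a description. Itgb3 rose by 4.38 (adjusted p = 0.000239, standard error 0.65) and Itga4 by 2.78 (adjusted p = 0.000212, standard error 0.40). Itgb5 fell by 2.20 (adjusted p = 0.00123, standard error 0.39), and by 1.18 without CD41 positive replicate 1. Itga6 fell by 0.68 (adjusted p = 0.0108), a call that was lost without VEGF-R2 positive replicate 2 (-0.60, adjusted p = 0.0916) or CD41 positive replicate 1 (-0.44, adjusted p = 0.137). Itga5 had -0.86 (adjusted p = 0.0892), and -1.28 without CD41 positive replicate 2 (adjusted p = 0.0209). Itga9, Itgav, Itgb1 and Itgb7 had values between -0.97 and -0.23 and were not called. The second Itga6 probe set had -0.60 in this comparison and was not called (adjusted p = 0.0877).

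The CD144 positive cells of day 3.5 differed less from the VEGF-R2 positive cells. Itga2b was higher than in VEGF-R2 positive cells by 1.19 (adjusted p = 0.00472) and Itga6 by 0.69 (adjusted p = 0.013), and no integrin gene was called lower by limma, nor at an unadjusted p under 0.05 (0 of 10), where 4.87% of all probe sets were higher and 2.84% lower (7.21% and 3.92% of all genes). The call of Itga2b was lost without VEGF-R2 positive replicate 1 (0.95, adjusted p = 0.0673) or CD144 positive replicate 2 of day 3.5 (1.10, adjusted p = 0.0585). That of Itga6 was lost without VEGF-R2 positive replicate 1 or either of these CD144 positive arrays (adjusted p from 0.0576 to 0.0984), and with arrays centred on their medians (0.57, adjusted p = 0.119). Itgb3 had 1.54 (adjusted p = 0.173, standard error 0.65), although its duplicates did not overlap with those of VEGF-R2 positive cells.

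By day 6.5 the CD144 positive cells had 5 integrin genes above the VEGF-R2 positive level and none below it, also at an unadjusted p under 0.05 (0 of 10), where 9.4% and 6.1% of all probe sets were (12.8% and 8.86% of all genes). Itgb3 was higher by 3.16 (adjusted p = 0.00264) and Itga2b by 1.51 (adjusted p = 0.000292). Itga4 was higher by 1.28 (adjusted p = 0.0401), which was lost on leaving out any of 9 arrays and was 0.76 without VEGF-R2 positive replicate 2 (adjusted p = 0.298). Itgav was higher by 0.71 (adjusted p = 0.00322), and so was Itga6, by 0.74 (adjusted p = 0.00395), though not without CD144 positive replicate 1 of day 6.5 (0.57, adjusted p = 0.0598). Array medians were higher by 0.23 in this comparison, and with arrays centred on them Itga4, Itga6 and Itgav had 1.05, 0.50 and 0.48 and were not called. Itgav was also called higher in CD144 negative cells of day 6.5 than in VEGF-R2 negative cells, by 0.57. With an array left out that value ran from 0.31 to 0.83. The other bright Itgb1 probe set was called higher in the CD144 positive cells, by 1.20 (adjusted p = 0.00595), where the representative set had 0.67 (adjusted p = 0.104).

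From day 3.5 to day 6.5 within the CD144 positive cells, Itgb1 was higher by 1.08 (adjusted p = 0.0229) and Itgav by 0.59 (adjusted p = 0.0275), which makes 2 of the 10 integrin genes, where 3.2% of all probe sets were higher and 2.64% lower (4.23% and 4% of all genes). The call of Itgav was lost on leaving out any of the 4 CD144 positive arrays, with adjusted p up to 0.13. That of Itgb1 was lost without either array of day 3.5 or without replicate 1 of day 6.5 (0.79, adjusted p = 0.195). With arrays centred on their medians, which differed by 0.12, neither was called (0.97 for Itgb1 and 0.47 for Itgav). The other bright Itgb1 probe set was higher by 1.75 (adjusted p = 0.0012) between the same populations. Itgav was also called higher from day 3.5 to day 6.5 in the CD144 negative cells, by 0.78. With an array left out that value ran from 0.52 to 1.04.

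The CD41 positive and the CD144 positive cells of day 3.5 differed in 5 integrin genes, 3 of them higher in the CD41 positive cells, where 3.72% of all probe sets were higher and 6.06% lower (5.07% and 9.59% of all genes). Itga2b is again 1 of the 3, higher by 1.86, and the sort on CD41 fixes its direction. Itgb3 was higher by 2.84 (adjusted p = 0.0088, standard error 0.65), a call that was lost without replicate 1 of the CD41 positive cells (2.65, adjusted p = 0.087) or of the CD144 positive cells (2.74, adjusted p = 0.0585). Itga4 was higher by 2.07 (adjusted p = 0.00289), and without CD41 positive replicate 1 by 1.74 (adjusted p = 0.0534). Itga6 was lower by 1.37 in the CD41 positive cells (log2 fold change -1.37, adjusted p = 2.4e-05, standard error 0.16), and its second probe set had -1.55 (adjusted p = 0.000103). Itgb5 was lower too (log2 fold change -2.06, adjusted p = 0.0022, standard error 0.39), at -1.03 without CD41 positive replicate 1, and its 3 other sets were called lower as well.

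Each of these changes was also set against the change between the matching negative populations, to ask whether it was larger in the sorted cells. For the step from VEGF-R2 positive to CD41 positive cells the difference of changes passed for Itgb3 (5.18, standard error 0.91) and Itga4 (3.63, standard error 0.57), and for Itga2b (3.03), where it follows from the sort on CD41 and is no finding. In that step 4.73% of all probe sets and 7.73% of all genes passed in either direction. In the negative cells Itgb3, Itga4 and Itga2b had changes of -0.80, -0.85 and 0.02, none of which passed. Itgb5 had -1.92 (adjusted p = 0.0572), while 2 of its other sets passed at -1.37 and -2.55 (adjusted p = 0.00463 and 0.000154). Towards CD144 positive cells at day 3.5, Itgb3, Itga2b and Itga6 passed (3.53, 1.25 and 1.09), where 5.3% of all probe sets and 8.34% of all genes did. For Itgb3 this was made up of a change of 1.54 in the positive cells and one of -1.99 in the negative cells, neither of which passed, and the latter ended at signals of 1.89 and 4.46, below the 10th percentile of all signals, 6.03. With a floor at a signal of 32 the Itgb3 difference was 1.69 (adjusted p = 0.135). The calls of Itgb3 and Itga2b were lost on leaving out any of 7 and any of 9 arrays. Towards the cells of day 6.5 Itga6 alone passed (0.94), where 4.84% of all probe sets and 7.22% of all genes did, and this call was lost for any of 5 arrays. In the negative cells Itga6 had -0.41 and -0.20 in these steps, neither of which passed, while its second probe set fell there by 1.07 (adjusted p = 0.00351) and by 0.88 (adjusted p = 0.0117) and had differences of changes of 2.02 and 2.03. Between the CD144 and CD41 positive cells of day 3.5, Itga4, Itga2b and Itga6 passed (2.03, 1.79 and -1.85), where 5.62% of all probe sets and 9.23% of all genes did. The value of Itga2b again follows from the sort. That of Itga4 (adjusted p = 0.0465) was lost on leaving out any of 13 arrays and with the replicate number as a block (adjusted p = 0.0539). By limma none of the 10 passed between day 3.5 and day 6.5 of the CD144 sort, where 0.79% of all probe sets and 1.33% of all genes did, and 1 had an unadjusted p under 0.05. That gene, Itgb1, had 1.41 (adjusted p = 0.0973), its other bright set passed (1.98, adjusted p = 0.0229), and without CD144 negative replicate 1 of day 6.5 it had 2.00 (adjusted p = 0.00209).

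**Figure D4:**
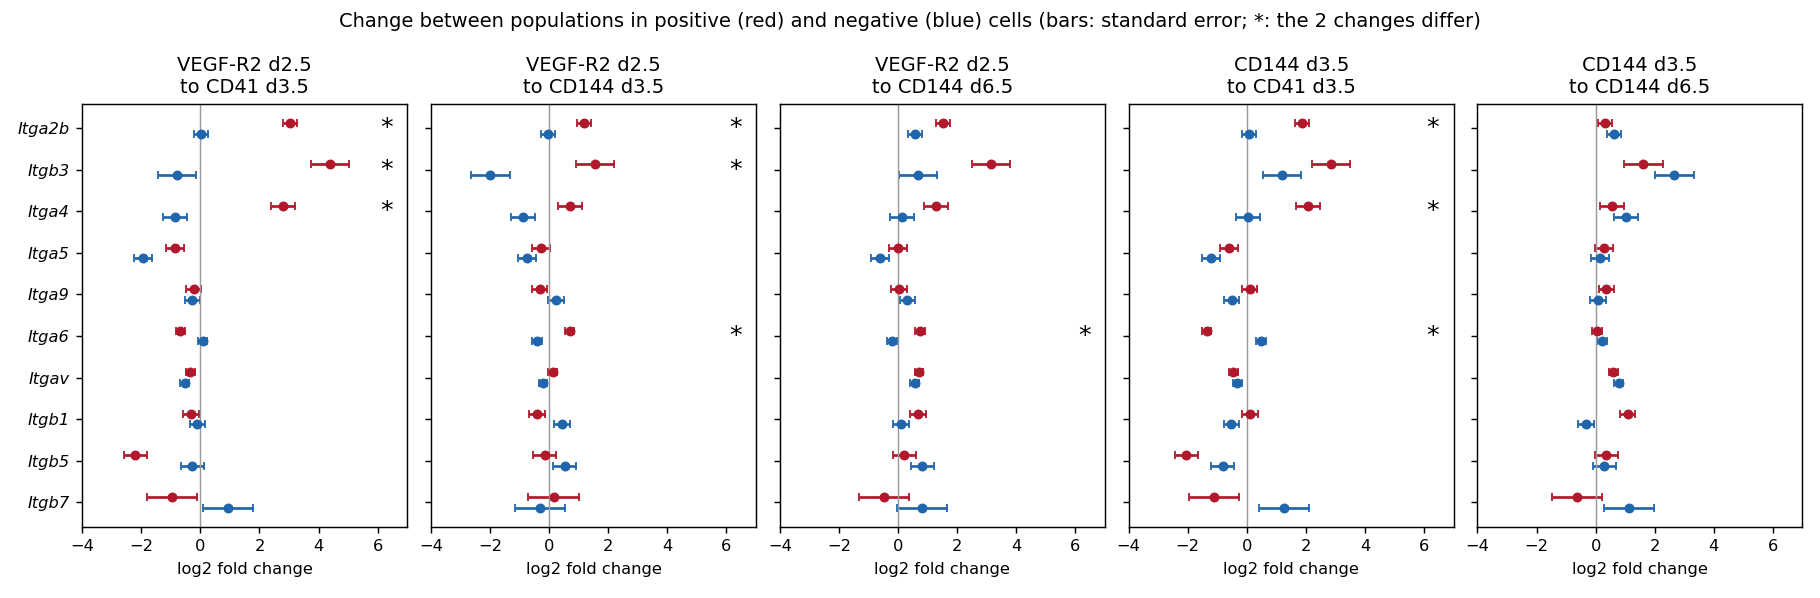
Log2 fold change of each integrin gene between 2 populations, in positive cells (red) and in the matching negative cells (blue), on the log2(signal + 6) scale; bars are standard errors, and an asterisk marks an adjusted p below 0.05 for the difference of the 2 changes. Itga2b, Itgb3 and Itga4 rise in the positive cells of the first panel by 3.05, 4.38 and 2.78.

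Of the 33 probe sets 18 had a mean at or above the median of all probe sets. In the 4 sorts a representative set and another set of the same gene were both called in 10 instances, in the same direction in 9 and in opposite directions in 1, the Itgb1 sets of the CD41 sort. Both of these Itgb1 sets were above the median level. In 52 instances the representative alone was called and in 7 another set alone was. The 4 sets of Itgb5 and the 2 of Itga6 were all above the median level and gave like values, -1.54 to -2.95 and -1.78 to -1.97 in the CD41 sort. For Itga4, Itgav and Itgb3 the representative was the sole set above that median, so their values rest on 1 probe set, as do those of Itga2b and Itgb7, which have no other. The second sets of Itga5 and Itga9 above the median, with median signals of 75.5 and 122, gave -1.54 (adjusted p = 0.0527) and -0.13 (adjusted p = 0.892) in the CD41 sort, where the representatives gave 2.12 and 1.54.

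**Figure D5:**
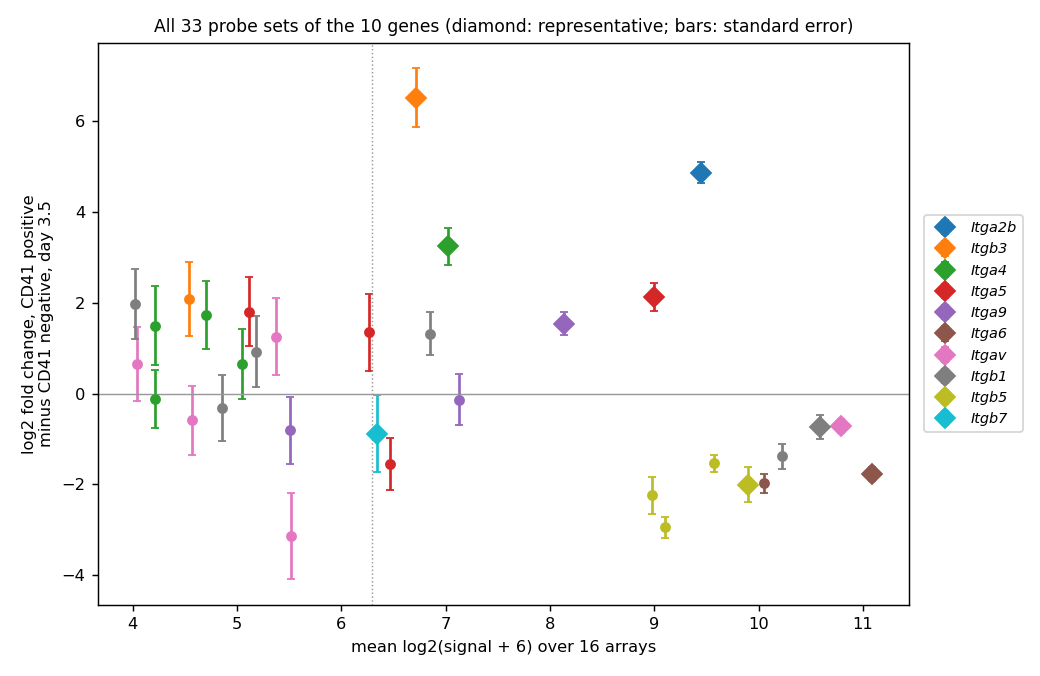
Log2 fold change between CD41 positive and CD41 negative cells at day 3.5 for the 33 probe sets, against their mean log2(signal + 6) over the 16 arrays; diamonds are the representative sets, circles the others, colours the genes and bars standard errors. To the left of the dotted line, the median of all probe sets, the bars are long and sets of 1 gene scatter around 0, while the bright sets of Itgb5 and Itga6 lie together.

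Across the 16 arrays Itga2b and Itgb3 had a Pearson correlation of 0.95 on the log2 scale, Itgb3 and Itga4 of 0.86, and Itga2b and Itga4 of 0.84. The lowest were those of Itga4 with Itgb5 (-0.71) and of Itga2b with Itga6 (-0.70). These are descriptions over duplicates of 8 populations that share the split into positive and negative arrays. Among 11453 genes above the median level, the pattern most like that of Itga2b was that of Fermt3 (0.99), the kindlin of blood cells that switches on integrins, followed by Gfi1b (0.98), a transcription factor of erythroid cells and megakaryocytes, Rasa3 (0.98), Bmp2k (0.98) and Spi1 (0.98), the myeloid factor PU.1. Itgb3 was most like Nfe2 (0.98), a transcription factor of megakaryocytes, then Spns2 (0.97) and Mbd2 (0.96). Itga4 was most like Stc2 (0.96), Gata1 (0.95), the erythroid and megakaryocyte factor, and Mbnl1 (0.94). Itga5 came closest to Kdr (0.95), which encodes VEGF-R2, Nrp2 (0.93) and Map3k11 (0.93). Itga6 came closest to Hspb1 (0.98), Gpat2 (0.97) and Dmrt1 (0.97), and Itgb5 to Nrk (0.98), Erbb2 (0.97) and Arhgef5 (0.96). Itga9 was nearest to Lix1l (0.97), Efhd2 (0.97) and Parvb (0.96), a parvin of integrin adhesions, Itgav to Trrap (0.91), Cadm4 (0.89) and Vasn (0.89), and Itgb1 to Map4k5 (0.93), Fam171a1 (0.91) and Yipf4 (0.91). The nearest genes of Itgb7, Spring1 (0.70), Kif4 (0.68) and Serp2 (0.65), were farther off.

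Proteins that switch integrins on or link them to actin were followed as a list of 30 measured genes. In the VEGF-R2 sort 7 were higher and 4 lower, in the CD41 sort 14 and 4, and in the CD144 sorts 10 and 15 were higher and none lower, with medians of 0.15, 0.56, 0.32 and 0.69. Of all 18193 genes 29.7%, 36.3%, 24% and 25.3% were called in either direction in these sorts. Fermt3 was at 12331 to 15457 in CD41 positive and 122 to 146 in CD41 negative cells, and its log2 fold changes were 3.15, 6.63, 4.15 and 3.25 in the 4 sorts, each with a standard error of 0.19 (highest adjusted p = 1.35e-08). Lims1, the adaptor PINCH, was at 5123 to 5499 against 790 to 966 in the CD41 sort (2.59, adjusted p = 7.06e-09), and Parvb at 1197 to 1453 against 134 to 157 (3.14, adjusted p = 1.3e-09). From VEGF-R2 positive to CD41 positive cells Fermt3 rose by 4.01 (adjusted p = 5.86e-10), while Fermt2, the kindlin of most other tissues, fell by 1.97 (adjusted p = 2.16e-05) and Tln2 fell by 2.62 (adjusted p = 0.000482). Fermt2 was at 3324 to 3391 in the VEGF-R2 positive and 578 to 1248 in the CD41 positive cells.

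Of the other integrin subunits, 15 of 17 were measured. Their counts were 0 higher and 2 lower in the VEGF-R2 sort, 1 and 3 in the CD41 sort, 1 and 1 in the CD144 sort at day 3.5 and 2 and 1 at day 6.5, against the same shares of all genes. Itgb2, the beta chain of leukocyte integrins, was at 238 to 967 in CD41 positive and 26.4 to 27.0 in CD41 negative cells (3.90, adjusted p = 0.000782), and at 333 to 355 against 25.4 to 30.2 in the CD144 sort at day 6.5 (3.38, adjusted p = 0.0041). Itga3, a laminin receptor chain like Itga6, was lower in the VEGF-R2 and CD41 sorts, with -2.52 (adjusted p = 8.79e-05) and -2.46 (adjusted p = 6.81e-05). Itga1, a collagen receptor chain, was higher in the CD144 sorts, with 2.12 (adjusted p = 0.00382) and 2.56 (adjusted p = 0.000876), and Itga8 was lower there, with -2.94 (adjusted p = 4.45e-06) and -1.52 (adjusted p = 0.00164).

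Of 29 matrix ligands 26 were measured, and 5 were higher and 6 lower in the VEGF-R2 sort, 7 and 4 in the CD41 sort, and 9 and 3, and then 9 and 4, in the CD144 sorts, against the same shares of all genes. Against VEGF-R2 positive cells 16 were higher and 1 lower in CD144 positive cells at day 6.5, where 12.8% and 8.86% of all genes were, led by Postn (7.11), a ligand of alpha v integrins, Fgb (3.12), which encodes 1 of the chains of fibrinogen, Vtn (2.89), which is vitronectin, and Tgfbi (2.54). In the CD144 sort at day 6.5 Postn was at 1470 to 1745 in positive and 604 to 690.1 in negative cells, and Fgb at 107 to 109 in positive and 2.32 to 2.60 in negative cells. Between the CD41 and CD144 positive cells of day 3.5, 2 ligands were higher and 8 lower in the CD41 positive cells, where 5.07% and 9.59% of all genes were, among the latter Ccn1 (-2.85) and the laminin chain gene Lamb1 (-1.92). Of 11 cell-surface ligands, 4 were higher and 3 lower in the VEGF-R2 sort and 3 and 4 in the CD41 sort. In the CD144 sorts 4 were higher and 1 lower at day 3.5, and 6 and 1 at day 6.5. The shares of all genes in these sorts are those given above. Icam2, the endothelial ligand of leukocyte integrins, had the largest fold in each sort and is also among the endothelial markers below. Its values were 3.21 in the VEGF-R2 sort, 5.74 in the CD41 sort and 7.23 in the CD144 sort at day 6.5.

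Levels of cell type markers also differed between the populations. The summed signal of 10 megakaryocyte and platelet markers was 8416 to 14218 in CD41 positive cells, 6614 to 6770 in CD144 positive cells at day 6.5, 1451 to 1918 at day 3.5, 685 to 851 in VEGF-R2 positive cells and 307 to 699 in the 4 negative populations, an order of populations that Itga2b and Itgb3 shared. The erythroid and the myeloid sums below put the 4 positive populations in the same order. In CD144 positive cells of day 3.5 and VEGF-R2 positive cells they were 3217 to 3481 and 953 to 1141 for erythroid markers. For myeloid markers they were 2424 to 2628 and 1389 to 1672. In the CD41 sort 6 of the 10 megakaryocyte and platelet markers were higher and none lower, and Gp9 was below the 25th percentile of all signals, 23.4, in VEGF-R2 positive, CD41 negative and day 3.5 CD144 positive cells. Erythroid markers summed to 95723 to 114823 in CD41 positive cells and 544 to 724 in CD41 negative cells, but to 38692 to 48093 and 42525 to 47249 in the CD144 positive and negative cells of day 6.5, where Itga2b and Itgb3 differed. Pluripotency markers summed to 3571 to 9668 in CD41 positive against 82177 to 82329 in CD41 negative cells and to 26678 to 29215 against 55681 to 57519 in the VEGF-R2 sort, the sorts in which Itga6 was lower, and to 49222 to 55997 against 48531 to 48816 in the CD144 sort at day 3.5. In the CD144 sort at day 6.5 they summed to 24738 to 28033 against 45599 to 45874, while Itga6 had -0.09 there (adjusted p = 0.765). Myeloid and leukocyte markers summed to 9139 to 13261 in CD41 positive and 830 to 960 in CD41 negative cells, and to 8025 to 9411 and 671 to 734 in the CD144 positive and negative cells of day 6.5, with 8 of 10 higher and none lower in each of these sorts. Of all genes 19.2% were called higher and 17.2% lower in the CD41 sort, and 13.4% and 11.9% in the CD144 sort at day 6.5. Endothelial markers were higher in the CD41 sort too, 12 of 12, with sums of 11164 to 19728 against 1283 to 1354. The part of these markers in the integrin results was not tested.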

How the data were processed

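RNA of 8 sorted populations was hybridized to 16 Affymetrix mouse genome expression arrays, 2 per population. The authors deposited MAS5 signal intensities, scaled per array to a trimmed mean of 500 (trimmed at 2 and 98 percent, and found at 499.804 to 499.848 here). Of 45101 probe sets, 64 controls were left out and 45037 tested: 34945 carried 1 gene symbol, 932 several and 9160 none, and no gene was named from the latter groups. From the deposited intensities, log2(signal + 6) was computed, the offset being near the 10th percentile of signals (6.03). Means of 8 populations were fitted to all arrays with limma 3.58.1 in R 4.3.3 (lmFit, eBayes with trend), and two-sided p-values were adjusted by Benjamini-Hochberg over all probe sets within a comparison at 0.05. Fits were tested on simulated data. Python 3.11.15, pandas 2.3.3 and matplotlib 3.10.9 served for joins and figures.

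All 10 integrin genes are named, and of each other list up to 4 called genes per comparison with the largest folds. The members and lists were chosen with earlier results of these data known. Alternatives were other offsets, a floor of 32, quantile normalization, centring, a filter at the median level, a robust prior, fits of fewer populations, the replicate number as a block, other choices of probe set, and leaving out each array. Arrays of embryos were not analysed here. The offset shrinks folds at low signals, where a dim Itgb1 set, with a median signal of 6.66, gave a value of the opposite sign. An Itgb1 set above the median level, with a median signal of 111, did so too. The p-values set a difference against a spread between duplicates that is pooled over the 8 populations. By the Spearman coefficients above, positive duplicates were less alike than negative ones. A comparison between positive populations therefore also draws on the spread of the negative ones.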

Additional observations from a re-analysis of the deposited data

Results flagged for a closer look

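The change of an integrin gene between positive populations differed from the change between the matching negative populations in 10 instances, by the interaction term of the limma fit. From VEGF-R2 positive to CD41 positive cells the difference of changes was 5.18 for Itgb3 (adjusted p = 0.00228), 3.63 for Itga4 (adjusted p = 0.000901) and 3.03 for Itga2b (adjusted p = 3.03e-05), each kept with any array left out, and for Itga2b the sort on the CD41 protein fixes the outcome. Towards CD144 positive cells at day 3.5 it was 3.53 for Itgb3 (adjusted p = 0.0307, lost on leaving out any of 7 arrays and with a floor at a signal of 32), 1.25 for Itga2b (adjusted p = 0.0379, lost for any of 9) and 1.09 for Itga6 (adjusted p = 0.00688, and 0.98 with adjusted p = 0.0529 without CD144 negative replicate 2 of day 3.5). Towards those of day 6.5 it was 0.94 for Itga6 (adjusted p = 0.0223, lost for any of 5). Between the CD144 and CD41 positive cells of day 3.5 it was 2.03 for Itga4 (adjusted p = 0.0465, lost for any of 13), 1.79 for Itga2b (adjusted p = 0.00301) and -1.85 for Itga6 (adjusted p = 5.68e-05), the latter pair kept with any array left out, and here too the sort on CD41 fixes the value of Itga2b. The first 3 steps share the VEGF-R2 populations.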

How the results depend on the processing

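Of 55 called integrin results, 21 kept their call and direction under every alternative, 34 under all but the probe set choices, and 19 were lost on leaving out an array. The kept number was 55 with probe sets under the median left out, 54 with an offset of 1 or 32, 51 with quantile normalization, 49 with a floor of 32 or the compared groups alone, 43 with centred arrays, 40 with a robust prior without trend, 38 with the set of largest variance and 30 with the mean of the sets. With positive arrays alone 15 of 19 were kept, and Itga6 from VEGF-R2 to CD41 positive cells had adjusted p = 0.053. The numbers of integrin genes called moved as follows. With the mean of the sets it was 2 in place of 5 in the VEGF-R2 sort, 4 in place of 9 in the CD41 sort, 3 in place of 7 in the CD144 sort at day 3.5 (4 with the set of largest variance) and 3 in place of 5 at day 6.5. Against VEGF-R2 positive cells, the 2 of CD144 positive cells at day 3.5 became 1 with centred arrays and 0 with the robust prior, and the 5 of day 6.5 became 2 with centred arrays and 3 with the robust prior or either probe set choice. From day 3.5 to day 6.5 the 2 became 0 under each of these 4 settings. For differences of changes, the 3 towards CD41 became 5 with the filter, the 3 towards CD144 at day 3.5 became 1 with centred arrays or the floor and 0 with the robust prior, and the 1 towards day 6.5 became 0 with centred arrays or the robust prior and 2 with an offset of 32 or the floor. Leaving out an array gave 4 to 8 integrin genes in the CD144 sort at day 3.5, 0 to 2 and 3 to 6 in CD144 positive cells of day 3.5 and day 6.5 against VEGF-R2 positive cells, 3 to 6 between CD41 and CD144 positive cells, 0 to 2 from day 3.5 to day 6.5, and 3 to 5, 0 to 3, 0 to 2 and, for the last step, 0 to 1 for differences of changes. Signs turned with another probe set or the mean of sets: Itgb1, not called in the VEGF-R2 sort, was called at 2.49 there, and of the called values Itgb1 had 1.98 and 0.30 in the CD41 sort and 0.14 in the CD144 sort at day 3.5, Itga9 -0.81 in the CD41 sort, Itga4 -0.37 and -0.12 in the CD144 sort at day 3.5, Itga5 -0.39 at day 6.5, and Itgav -0.80 and -0.027 from day 3.5 to day 6.5 in positive and -0.80 in negative cells, and -1.05 and -0.022 between CD144 negative cells of day 6.5 and VEGF-R2 negative cells. The cause was not tested. The labels do not say whether replicate numbers pair the arrays, and this was not settled here. Over 28 pairs of populations the duplicates' differences correlated at -0.05 to 0.05, though 14 of 16 arrays came closest to one of their own number. The duplicates of a population mirror each other in this count, so its 16 arrays are not separate. With the replicate block 54 calls were kept, and Itga4 between CD144 and CD41 positive cells (difference of changes 2.03) had adjusted p = 0.0539. With 2 arrays per population, signals near the floor of the array limit what can be told.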
